A study of Americamysis bahia with 35 samples.

Results

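Juvenile mysids (Americamysis bahia, a small estuarine shrimp used in toxicity testing) kept in weathered tire-wear particle leachate at 1.34 g/L were compared with control juveniles in seawater at 0 g/L. The comparison rested on the 5 libraries labelled with weathered leachate at 1.34 g/L and the 5 control libraries, 10 of the 35 libraries of the series. All of the 27420 transcripts that passed a filter on low counts were tested, of 34903 in the files. The transcripts were also summed to Trinity genes, the groups of related transcripts that the Trinity assembler makes, of which 17990 were tested of 22900.

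Both groups were whole bodies of juveniles whose age the labels give as 5 days, sampled after 96 h. The exposed juveniles had the leachate in their water, and both groups were kept in filtered seawater and fed brine shrimp nauplii (Artemia). The other groups, 5 libraries each, had weathered leachate at 0.67 and 2.68 g/L and un-weathered leachate at 0.27, 0.54 and 1.08 g/L. They entered only the filter on low counts, the scaling, the shared estimate of the spread and the comparisons between concentrations. Whether a library was 1 animal or a pool, and whether the libraries of a group had tanks of their own, is not in the labels. The p-values therefore speak of the spread between libraries, part of which may be technical.

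Tire rubber releases zinc, antioxidants and vulcanisation chemicals into water, and this mixture changes as the particles age in light and weather. Crustaceans handle foreign organic chemicals through oxidising enzymes, conjugating enzymes and export pumps, and bind excess metals with small cysteine-rich proteins. Which of the transcripts described here code for such proteins was not analysed, since the IDs were used without gene names or sequences. For the same reason the labelled tissue was not checked against marker genes, and transcripts of the mysids could not be told apart from those of their prey. At most 2 rising and 2 falling transcripts are named by ID, and the others are given by their length in bases.

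Replicate 3 of the exposed group stood apart from the other libraries. Its median correlation with the rest of the series (Pearson, log2 CPM over the tested transcripts, where CPM is a transcript's count scaled to a common library size) was 0.876, the lowest of the 35, and its median correlation with the other exposed libraries was 0.883. It had 25 transcripts at more than 2-fold the level of every other library. By these last 2 measures it was not the extreme. Un-weathered 0.54 g/L replicate 1 had 112 such transcripts and a median correlation of 0.880 with its own group. Weathered 2.68 g/L replicate 4 had 27 such transcripts. Since its correlation with the series was the lowest, results are given with and without replicate 3 of the exposed group. Over all tested transcripts the median SD of log2 CPM was 0.447 in exposed libraries and 0.408 in control libraries. Without replicate 3 the exposed value was 0.414, and without replicate 1 it was 0.387. Total counts ran from 20098354 to 27041423 in exposed libraries and from 18081325 to 26636831 in control libraries, with no difference beyond the spread between libraries (exact permutation test, two-sided, p = 0.730; p = 0.841 adjusted over the 4 library measures compared). TMM scaling factors, which correct for a shifted composition of a library, averaged 0.973 ± 0.054 in exposed libraries and 1.07 ± 0.086 in control libraries (SD, n = 5 each; exact permutation test, two-sided, p = 0.0794, adjusted p = 0.317).

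The comparison asked which transcripts changed in abundance over the exposure. Few transcripts passed edgeR's test with all libraries, and these were higher in exposed juveniles, but the count and the direction were not stable across settings. Of 27420 transcripts 3 were called (edgeR quasi-likelihood test, Benjamini-Hochberg adjusted p under 0.05), which is 0.0109% of those tested, and 0 were called lower. DESeq2 called 92, of which 41 were higher and 51 lower, and edgeR without 1 library of another group, replicate 1 of weathered 0.67 g/L, called 81, of which 16 were higher and 65 lower. An unadjusted p under 0.05 was found in 2140 transcripts (7.8%), of which 1216 were higher and 924 lower. Without replicate 3 of the exposed group 6 of 27757 transcripts were called, all higher (0.0216%), and these 6 included the 3. Over all transcripts the median log2 change was 0.02. The 3 called transcripts were among the 6855 most abundant of the tested transcripts. In whole bodies, more cells that express a transcript and more RNA per cell cannot be told apart.

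TRINITY_DN6462_c0_g1_i1, of 1841 bases, had the larger rise of the named transcripts. It stood at 151, 192, 161, 163 and 254 CPM (scaled by the TMM factors) in the exposed libraries, against 57.1, 75.4, 51.4, 107 and 77.6 CPM in the control libraries. The groups did not overlap, and replicate 3 lay with the other exposed libraries. The log2 change was 1.32 (SE 0.19, adjusted p = 0.000958, edgeR), and without replicate 3 it was 1.37 (SE 0.20, adjusted p = 0.00326, edgeR). This transcript is the only one of its Trinity gene and ranked 714 of all transcripts in the files by mean TPM (a measure of abundance per length).

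TRINITY_DN5399_c0_g1_i1 is one of the longest transcripts described here, at 14190 bases, and also the only one of its Trinity gene. It stood at 357, 283, 350.5, 309.6 and 334 CPM in the exposed libraries, against 207, 201, 181, 181 and 230.2 CPM in the control libraries. Again the groups did not overlap, and replicate 3 was among the highest exposed libraries. The change in log2 units was 0.71 (SE 0.10, adjusted p = 0.000958, edgeR), and without replicate 3 it was 0.68 (SE 0.10, adjusted p = 0.00403, edgeR). By mean TPM it ranked 2980 of all transcripts, well below TRINITY_DN6462_c0_g1_i1 once length is taken into account (29.5 against 176 TPM over the 35 libraries).

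The third called transcript, of 2225 bases, stood at 406, 318, 319.8, 334 and 329 CPM in the exposed libraries, against 250.0, 217, 212, 236 and 252 CPM in the control libraries. Exposed replicate 1 was the highest and the other 4 exposed libraries lay within a narrow range above every control library. The log2 change was 0.55 (SE 0.09, adjusted p = 0.0148, edgeR), and without replicate 3 it was 0.57 (SE 0.10, adjusted p = 0.0222, edgeR). Its call was lost without exposed replicate 1 (log2 0.48, edgeR adjusted p = 0.0790), without control replicate 3 (log2 0.52, edgeR adjusted p = 0.0905) and without control replicate 4 (log2 0.55, edgeR adjusted p = 0.0540). All 3 calls were also lost with the 10 libraries fitted alone, which changes the estimate of the spread, the filter and the scaling. Which of these mattered was not tested. The log2 changes in that fit were 1.30, 0.68 and 0.52. Its edgeR adjusted p-values were 0.102 for the 1841-base, 0.0698 for the 14190-base and 0.112 for the 2225-base transcript.

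**Figure D1:**
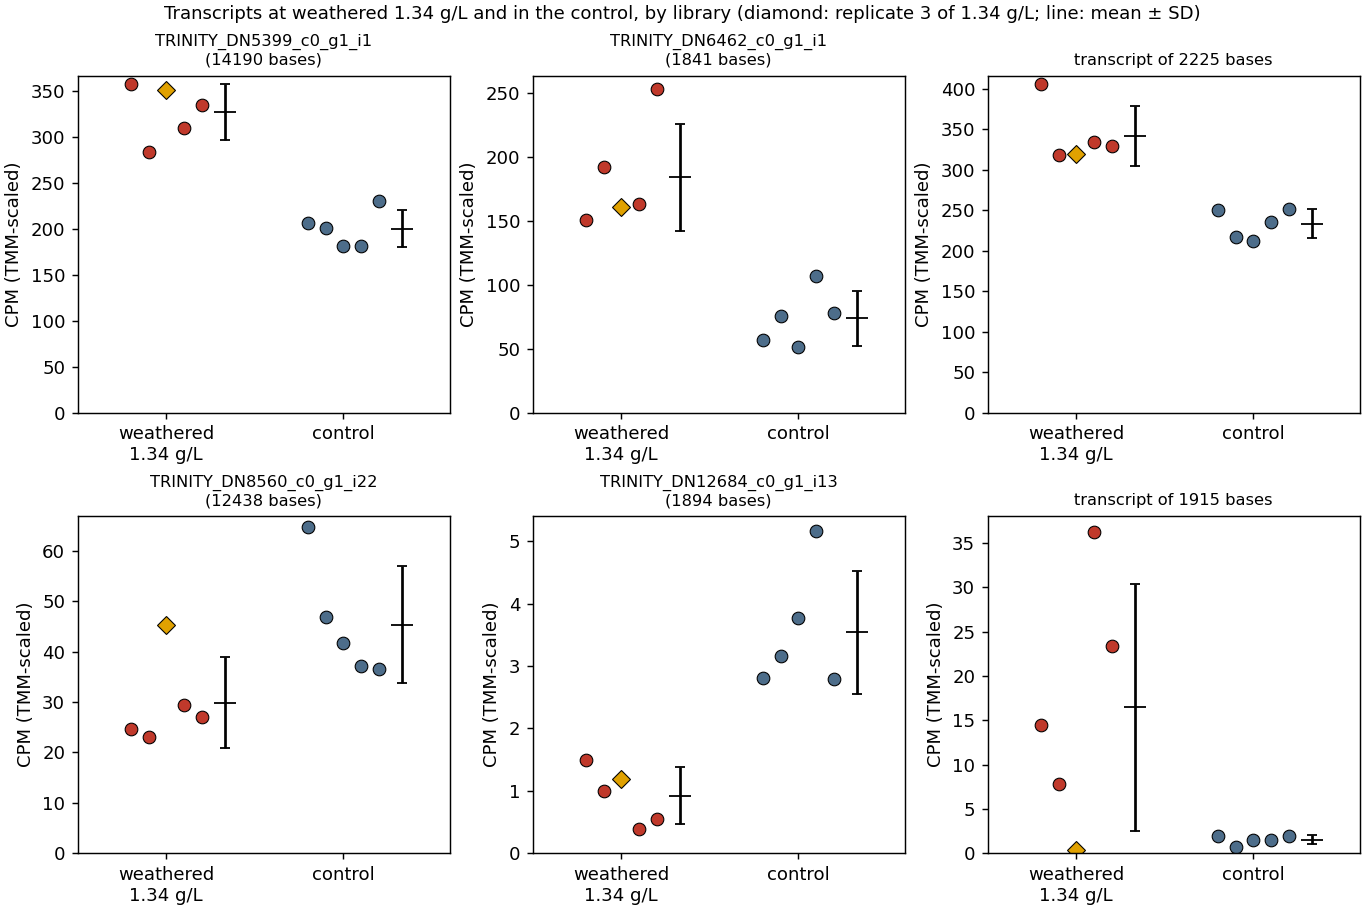
CPM (vertical axis, scaled by TMM factors) of 6 transcripts in the 5 libraries of weathered 1.34 g/L (left) and the 5 control libraries (right); points are libraries, the diamond is replicate 3 of 1.34 g/L, and the line is the mean ± SD. The 3 called transcripts in the top row do not overlap between groups. In the bottom row replicate 3 lies apart from the other exposed libraries for the 12438-base and the 1915-base transcript. Both were picked in the fit without replicate 3, which favours such a place.

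Another 3 transcripts were short of the test over 27420 transcripts with all libraries and passed it without replicate 3. Picking them by this difference favours transcripts where replicate 3 lies apart, so its place in them is no test of that library. Transcript levels of an isoform of 1915 bases were 14.5, 7.83, 0.368, 36.2 and 23.4 CPM in the exposed libraries, against 1.97, 0.714, 1.50, 1.44 and 1.92 CPM in the control libraries. Replicate 3 was below every control library and the other 4 exposed libraries were above every control library. The change in log2 units was 3.44 (SE 0.80, adjusted p = 0.224, edgeR) with replicate 3 and 3.75 (SE 0.71, adjusted p = 0.0483, edgeR) without it. For its Trinity gene, a sum of 4 transcripts, the log2 change with all libraries was 0.68 (SE 0.31, adjusted p = 0.436, edgeR).

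A transcript of 1183 bases stood at 77.2, 74.1, 38.5, 43.8 and 64.2 CPM in the exposed libraries, against 40.7, 34.9, 30.2, 27.8 and 36.4 CPM in the control libraries. Its lowest exposed library was replicate 3, which overlapped the control range. The edgeR adjusted p was 0.178 with replicate 3 and 0.0272 without it (log2 0.81 and 0.93), and the authors' deposited table gives it an adjusted p of 0.0359 over fewer transcripts. The last of the 3, an isoform of 1297 bases, stood at 48.6, 33.4, 16.9, 43.1 and 39.2 CPM in the exposed libraries, against 23.1, 21.9, 12.8, 20.9 and 20.8 CPM in the control libraries. Replicate 3 was the lowest exposed library and lay within the control range. Its edgeR adjusted p was 0.273 with replicate 3 and 0.0470 without it (log2 0.86 and 1.04).

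No transcript passed the test as lower in exposed juveniles, with or without replicate 3. The falling transcripts with the smallest adjusted p in the fit without replicate 3 are given as values. They were taken from those with a mean log2 CPM of at least 1 and the other 4 exposed libraries all below the control mean. That these 4 lay on the lower side was thus part of the choice. TRINITY_DN8560_c0_g1_i22, of 12438 bases, stood at 24.6, 23.0, 45.4, 29.3 and 27.1 CPM in the exposed libraries, against 64.7, 46.8, 41.7, 37.1 and 36.7 CPM in the control libraries. Replicate 3 lay within the control range and the other 4 exposed libraries lay below every control library. The log2 change was -0.60 (SE 0.18, adjusted p = 0.360, edgeR) with replicate 3 and -0.80 (SE 0.17, adjusted p = 0.152, edgeR) without it.

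TRINITY_DN12684_c0_g1_i13, of 1894 bases, was a transcript of low abundance. Its estimated counts were 28, 26, 29, 9 and 13 in the exposed libraries, against 84, 84, 101, 86 and 74 in the control libraries. In CPM these were 1.49, 0.988, 1.19, 0.380 and 0.540 in the exposed libraries and 2.81, 3.15, 3.78, 5.16 and 2.79 in the control libraries. All exposed libraries, replicate 3 included, lay below every control library. The change in log2 units was -1.94 (SE 0.41, adjusted p = 0.178, edgeR), and without replicate 3 it was -2.06 (SE 0.45, adjusted p = 0.152, edgeR).

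Summing transcripts to Trinity genes raised the number of calls slightly and brought in a fall. The sum is not affected by how kallisto, the program that estimated the counts, divides reads among isoforms of a Trinity gene. Of 17990 Trinity genes 6 were called, 5 higher and 1 lower (edgeR adjusted p under 0.05, 0.0334%), and 1866 (10.4%) had an unadjusted p under 0.05. Without replicate 3 of the exposed group 8 of 18143 were called, 7 higher and 1 lower (0.0441%), and these included the 6. The 3 called transcripts described above were each the only transcript of a called Trinity gene.

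The called fall was that of TRINITY_DN12684_c0_g1. Summed over its 3 transcripts the counts were 40, 37, 40, 15 and 15 in the exposed libraries, against 148, 135, 145, 130 and 139 in the control libraries. In CPM the exposed libraries lay at 2.14, 1.41, 1.63, 0.632 and 0.621 and the control libraries at 4.90, 5.04, 5.40, 7.85 and 5.22, so every exposed library was below every control library. The log2 change was -2.14 (SE 0.39, adjusted p = 0.0208, edgeR), and without replicate 3 it was -2.25 (SE 0.43, adjusted p = 0.0326, edgeR). Its 3 transcripts held 62.5%, 30.3% and 7.2% of its counts, and their log2 changes of -1.94, -2.60 and -2.30 were each short of the test (edgeR adjusted p = 0.178, 0.296 and 0.698). No other Trinity gene was called lower.

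The other 2 calls were rises of smaller size. A Trinity gene of 1 transcript, of 1463 bases, stood at 128, 251, 168, 183 and 197 CPM in the exposed libraries, against 98.8, 128, 61.9, 95.3 and 94.9 CPM in the control libraries. The lowest exposed library, replicate 1, lay at the level of the highest control library. The change in log2 units was 0.95 (SE 0.18, adjusted p = 0.0406, edgeR), and 0.99 (SE 0.19, adjusted p = 0.0417, edgeR) without replicate 3.

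A Trinity gene of 2 transcripts, of 1887 and 1297 bases, stood at 378, 279.9, 262, 307 and 296 CPM in the exposed libraries, against 233, 195, 197, 191 and 212 CPM in the control libraries. The groups did not overlap, and replicate 3 was the lowest exposed library. The log2 change was 0.57 (SE 0.11, adjusted p = 0.0447, edgeR), and 0.62 (SE 0.11, adjusted p = 0.0286, edgeR) without replicate 3. Its 1887-base transcript held 89.7% of its counts. The calls added without replicate 3 were the single-transcript Trinity genes of 1183 bases (edgeR adjusted p = 0.0137, against 0.0726 with it) and of 3510 bases (edgeR adjusted p = 0.0417, against 0.116 with it).

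**Figure D2:**
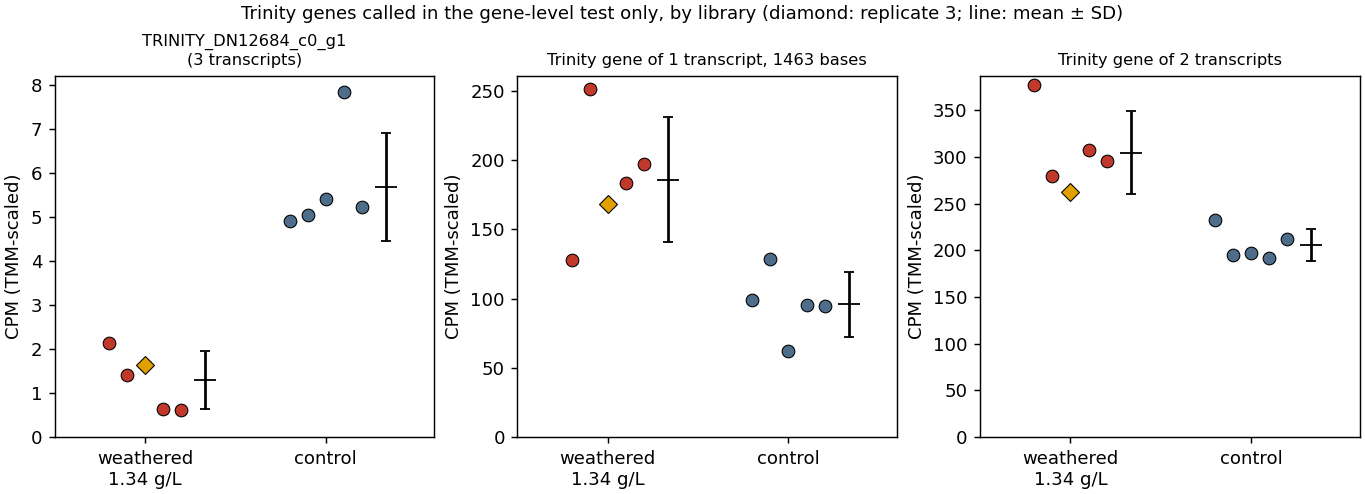
CPM (vertical axis, scaled by TMM factors) of the 3 Trinity genes called in the gene-level test but not as transcripts, in the 5 libraries of weathered 1.34 g/L (left) and the 5 control libraries (right); points are libraries, the diamond is replicate 3 of 1.34 g/L, and the line is the mean ± SD. The exposed libraries of TRINITY_DN12684_c0_g1 lie between 0.621 and 2.14 CPM, all below the control libraries.

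The Trinity gene of TRINITY_DN8560_c0_g1_i22 did not pass the test but kept the groups apart. Its 4 transcripts summed to 152, 109.96, 134, 138 and 127 CPM in the exposed libraries, against 202, 201, 192, 175 and 185 CPM in the control libraries. With the sum, replicate 3 lay with the other exposed libraries below every control library. The change in log2 units was -0.53 (SE 0.12, adjusted p = 0.118, edgeR), and without replicate 3 it was -0.54 (SE 0.13, adjusted p = 0.234, edgeR). Of its isoforms the one of 7070 bases held 59.2% of the counts and the named one 22.9%. Their log2 changes were -0.63 and -0.60.

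Leaving out 1 library changed the Trinity gene calls. Without exposed replicate 2, 4 or 5, or without control replicate 4, 3 Trinity genes were called, all higher, and the fall of TRINITY_DN12684_c0_g1 was not among them. Without exposed replicate 1, 9 were called. A larger change came from a library of neither group, replicate 1 of weathered leachate at 0.67 g/L, which enters the test only through the scaling, the filter and the shared spread. Without that library 81 of 27834 transcripts were called, 16 higher and 65 lower (0.291%), and 240 of 18184 Trinity genes, 33 higher and 207 lower (1.32%). This setting was chosen after the data had been seen. No other library outside the compared groups was left out of the comparison with the control. Whether such a library would change the calls as much was not tested. Without both that library and exposed replicate 3, 64 transcripts (14 higher, 50 lower, 0.231%) and 177 Trinity genes (22 higher, 155 lower, 0.978%) were called, and 159 Trinity genes were called in both fits.

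The 207 falling Trinity genes had small changes with all libraries in the fit. Their median log2 change at 1.34 g/L was -0.45 in the fit of all 35 libraries, against 0.02 over all Trinity genes tested, and 205 of them had an unadjusted p under 0.05 there. In all 207 replicate 3 of the exposed group lay below the control mean, as it did in 49.3% of all Trinity genes tested. In 166 the 5 exposed libraries did not overlap the 5 control libraries, while 2.77% of all Trinity genes tested did not overlap in either direction and 1.82% did not with the exposed libraries lower. In 196 of the 207 (94.7%) replicate 1 of 0.67 g/L was the lowest of the 35 libraries, as it was in 11.3% of all Trinity genes tested. Its part in the number of calls beyond these counts was not tested. Since the genes were chosen by a call in the same contrast, these values describe them and are no test.

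The examples that follow are among the 207 and were also called without both libraries. The Trinity gene with the smallest adjusted p among falls in the fit without both libraries stood at 31.9, 28.6, 34.9, 28.6 and 32.8 CPM in the exposed libraries, against 39.1, 43.6, 44.1, 42.6 and 44.9 CPM in the control libraries. Every exposed library was below every control library, and the log2 change was -0.45 (edgeR adjusted p = 0.196) with all libraries and -0.52 (edgeR adjusted p = 0.000652) without both. The next one stood at 9.26, 8.30, 10.1, 7.63 and 9.23 CPM in the exposed libraries, against 18.1, 16.6, 13.9, 14.6 and 19.2 CPM in the control libraries. Here too the groups did not overlap, and the log2 change was -0.89 (edgeR adjusted p = 0.119) with all libraries and -0.97 (edgeR adjusted p = 0.000652) without both. An abundant one stood at 403, 342, 376, 346 and 367 CPM in the exposed libraries, against 610.0, 625, 541, 427 and 597 CPM in the control libraries, with control replicate 4 nearest to the exposed libraries (edgeR adjusted p = 0.119 with all libraries and 0.00108 without both).

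**Figure D3:**
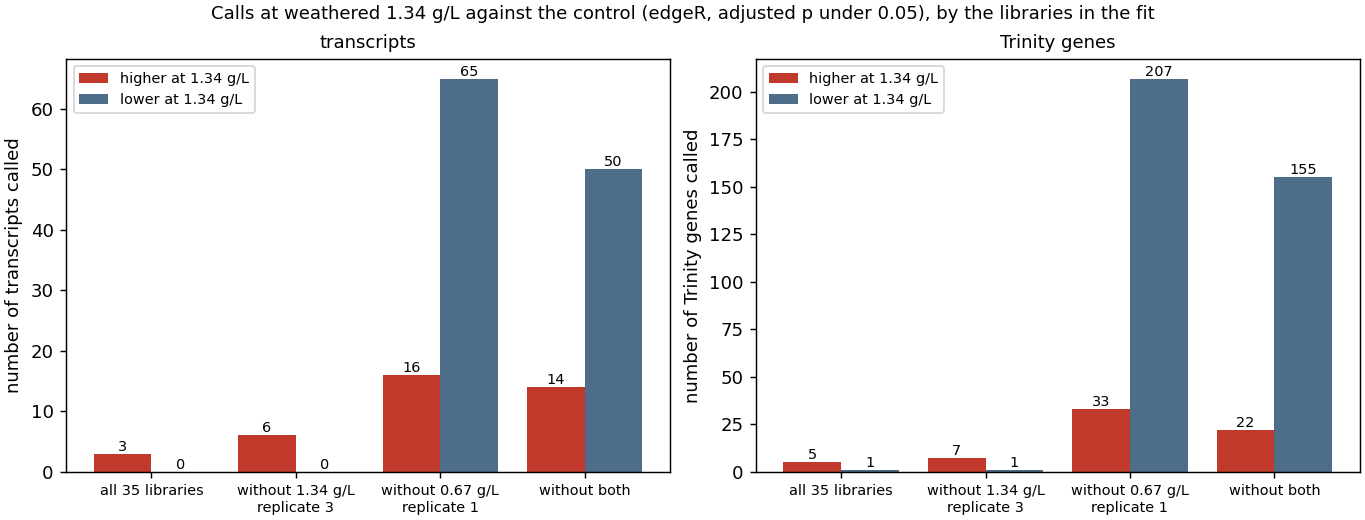
Number of transcripts (left panel) and Trinity genes (right panel) called higher or lower at weathered 1.34 g/L against the control, with all 35 libraries, without replicate 3 of 1.34 g/L, without replicate 1 of 0.67 g/L, and without both. Among Trinity genes 1 was called lower with all libraries and 207 without replicate 1 of 0.67 g/L.

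Across concentrations, which share the control libraries, the 207 falling Trinity genes had median log2 changes of -0.53, -0.45 and -0.29 at weathered 0.67, 1.34 and 2.68 g/L. At un-weathered 0.27, 0.54 and 1.08 g/L the medians were -0.07, -0.10 and 0.02. The 33 rising Trinity genes had medians of 0.56, 0.73 and 0.75 at those weathered concentrations, and the un-weathered medians were 0.53, 0.67 and 0.70 in the same rising order. The medians at 0.67 g/L include replicate 1 of that group, whose level in the 207 was a median log2 of -1.08 from the median of its group's other libraries. In the fit without that library the falling Trinity genes had medians of -0.39, -0.48 and -0.32 at weathered 0.67, 1.34 and 2.68 g/L, and the rising ones 0.46, 0.70 and 0.72. The largest median fall thus lay at 0.67 g/L with that library and at 1.34 g/L without it. The lists were chosen by their calls at 1.34 g/L, and the differences between these medians were not tested.

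A small share of transcripts kept the groups apart by level alone. The CPM of 557 transcripts (2.03%) did not overlap between exposed and control libraries, 196 higher and 361 lower. Without replicate 3 of the exposed group, 908 (3.31%) did not overlap, 397 higher and 511 lower. Among Trinity genes 499 (2.77%) did not overlap, 171 higher and 328 lower, and 788 (4.38%) without replicate 3, 322 higher and 466 lower. At the same CPM values, leaving out any library can only keep or raise such counts. How far they would rise without another exposed library was not tested.

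The relation to the neighbouring concentrations was tested directly, without the control libraries. Between 1.34 and 2.68 g/L 2 of 27420 transcripts were called, both lower at 1.34 g/L (edgeR adjusted p under 0.05, 0.00729%), and 1300 had an unadjusted p under 0.05. A transcript of 889 bases had 9.21 ± 4.49 CPM at 1.34 g/L and 61.6 ± 31.7 CPM at 2.68 g/L, with 11.2 ± 4.60 CPM in the control (SD, n = 5 each). Its log2 difference between the 2 concentrations was -2.74 (SE 0.44, adjusted p = 0.0192, edgeR). A transcript of 532 bases had 6.64 ± 3.83 CPM at 1.34 g/L and 52.4 ± 22.2 CPM at 2.68 g/L, with 6.54 ± 1.56 CPM in the control (SD, n = 5 each), a log2 difference of -2.98 (SE 0.51, adjusted p = 0.0274, edgeR). Both thus lay near the control level at 1.34 g/L, with log2 changes from the control of -0.27 (SE 0.42) and 0.02 (SE 0.48). Without replicate 2, 3 or 5 of 1.34 g/L, or without replicate 4 of 2.68 g/L, 0 transcripts were called in this comparison, without replicate 3 of 2.68 g/L 1 was, and without replicate 1 of either group 4 were. limma-voom called 4 and DESeq2 called 40.

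Between 1.34 and 0.67 g/L 0 of 27420 transcripts were called (0%), 828 had an unadjusted p under 0.05, and the smallest edgeR adjusted p was 1. limma-voom called 0 and DESeq2 called 15 in this comparison. The count was 0 in each fit that left out 1 library of either group.

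The 3 called transcripts were ordered by concentration in their means. TRINITY_DN5399_c0_g1_i1 averaged 200.0 ± 20.4, 258 ± 19.0, 327 ± 30.6 and 439.6 ± 50.6 CPM in the control and at weathered 0.67, 1.34 and 2.68 g/L (SD, n = 5 each). TRINITY_DN6462_c0_g1_i1 averaged 73.6 ± 21.7, 140.1 ± 26.3, 184 ± 41.7 and 257 ± 57.4 CPM in the same order, and the 2225-base transcript 233 ± 18.2, 309 ± 31.4, 341 ± 37.0 and 407 ± 34.3 CPM. The steps next to 1.34 g/L did not pass the test. For TRINITY_DN5399_c0_g1_i1 the log2 difference was -0.43 from 2.68 g/L (SE 0.10, adjusted p = 0.227, edgeR) and 0.34 from 0.67 g/L (SE 0.10, adjusted p = 1, edgeR). For TRINITY_DN6462_c0_g1_i1 it was -0.48 from 2.68 g/L (SE 0.18, adjusted p = 0.956, edgeR) and 0.39 from 0.67 g/L (SE 0.18, adjusted p = 1, edgeR).

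TRINITY_DN12684_c0_g1_i13 averaged 3.54 ± 0.991, 2.46 ± 1.67, 0.918 ± 0.458 and 0.813 ± 0.095 CPM in the control and at weathered 0.67, 1.34 and 2.68 g/L (SD, n = 5 each). The levels at 1.34 and 2.68 g/L differed by less than their spread (log2 difference 0.17, SE 0.41). At un-weathered 0.27, 0.54 and 1.08 g/L it averaged 2.70 ± 0.677, 2.10 ± 1.07 and 2.30 ± 0.578 CPM (SD, n = 5 each).

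**Figure D4:**
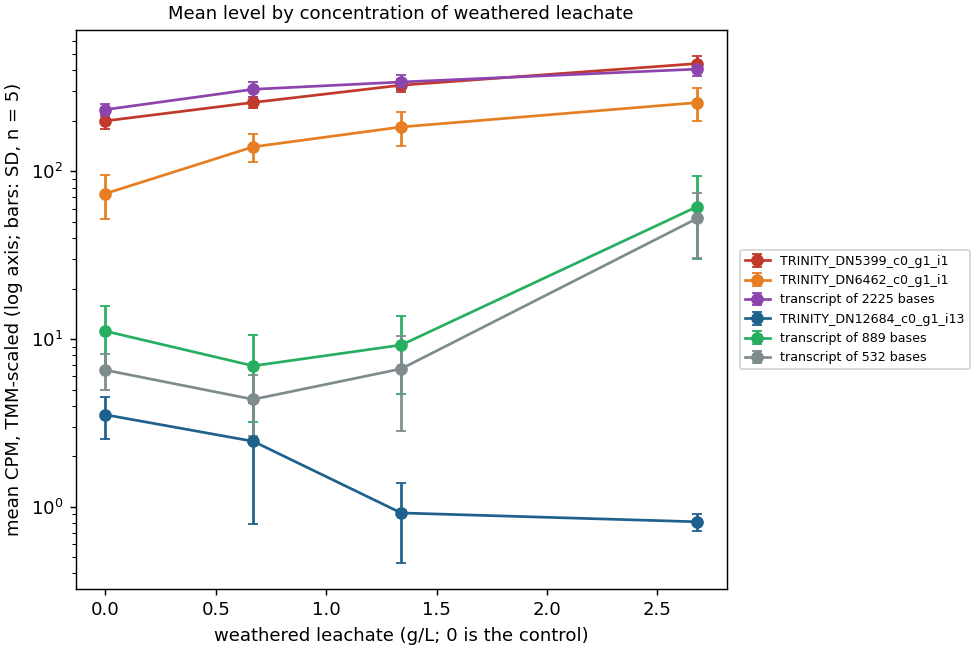
Mean CPM (log axis, scaled by TMM factors; bars are the SD of 5 libraries) of 6 transcripts against the concentration of weathered leachate in g/L, where 0 is the control. The 3 called transcripts have higher means at each higher concentration, while those of 889 and 532 bases are near the control level at 1.34 g/L and higher at 2.68 g/L. TRINITY_DN8560_c0_g1_i22, which was not ordered by concentration, is not shown.

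Isoform shares within Trinity genes gave no call that was made by both edgeR and limma. edgeR's diffSpliceDGE (Simes p, Benjamini-Hochberg adjusted p under 0.05) called 6 of 5857 Trinity genes with at least 2 tested transcripts (0.102%), and 2 of 5936 without replicate 3 (0.0337%). On simulated counts, however, more than the intended share of its calls were false, and limma's diffSplice, an alternative added after seeing the data, called 0 of the same Trinity genes on these libraries (427 with an unadjusted p under 0.05, smallest adjusted p = 0.130). The shares that follow are therefore given as values. The simulation drew each transcript independently, without errors from dividing reads among isoforms. That limma called 0 does not show that the shares were unchanged.

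In the Trinity gene with the smallest p in edgeR's test a minor isoform of 2706 bases held 1.84%, 1.45%, 1.56%, 0.330% and 1.46% of the counts in the exposed libraries, against at most 0.00208% in each control library. Another minor isoform, of 2676 bases, was at 0 in all 5 exposed libraries and held 0.283%, 0.574%, 0.713%, 0.393% and 0.554% in the control libraries. The main isoform, of 2991 bases, held 94.3% ± 1.97 of the counts in the exposed libraries and 94.9% ± 0.658 in the control libraries (SD, n = 5 each), so the 2 minor isoforms made up a small part of the counts. The summed level of the gene had a log2 change of -0.04 (SE 0.14, adjusted p = 0.958, edgeR). Its counts ran from 4655 to 8105 in the exposed libraries, where a count of 0 allows a share of up to 0.0644% in the shallowest (counting error only). The isoforms share sequence, and how kallisto divided the reads among them was not tested.

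**Figure D5:**
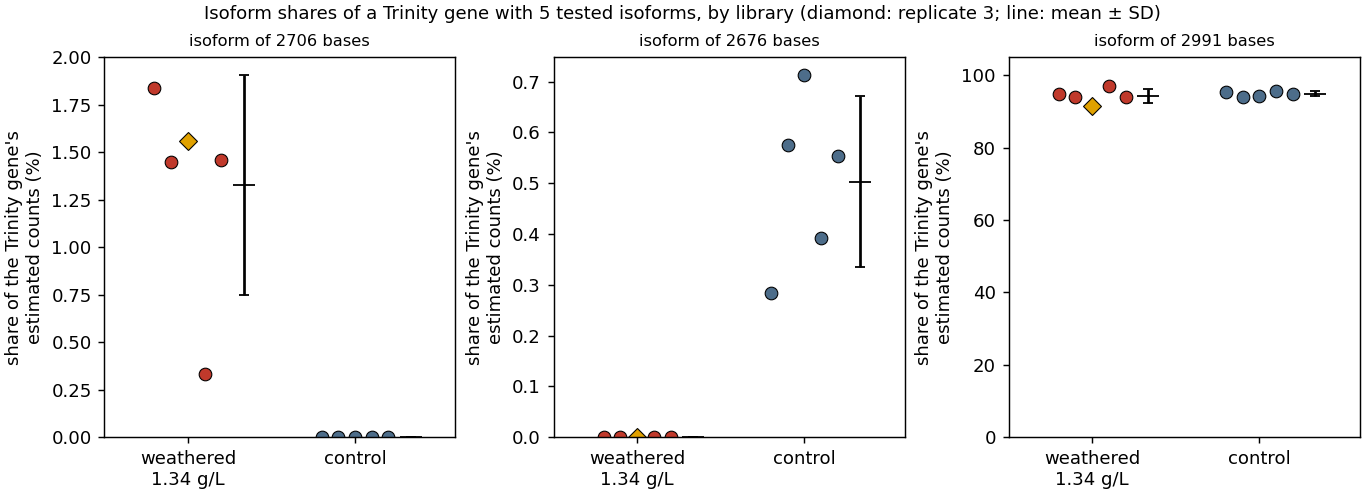
Share of a Trinity gene's estimated counts in percent (vertical axis) held by its isoforms of 2706, 2676 and 2991 bases, in the 5 libraries of weathered 1.34 g/L (left) and the 5 control libraries (right); points are libraries, the diamond is replicate 3 of 1.34 g/L, and the line is the mean ± SD. The 2706-base isoform is near 0 in the control libraries and the 2676-base isoform is at 0 in the exposed libraries.

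In the authors' deposited table for this comparison 12 of 13326 transcripts had an adjusted p under 0.05 (0.09%), 10 higher and 2 lower at 1.34 g/L. The 3 transcripts called here over 27420 were among the 12 of the authors' deposited table. An edgeR fit of all 35 libraries to the table's 13326 transcripts called 12, and the 12 were those of the authors' deposited table. That table holds an F score, which edgeR's quasi-likelihood test also gives. The match may thus be one of the same method and is no independent check. For TRINITY_DN6462_c0_g1_i1 the authors' deposited table gives a log2 change of 1.32 and an adjusted p of 0.00047. Its 2 falls, of 2905 and 2919 bases, had here log2 changes of -0.56 (SE 0.12, adjusted p = 0.181, edgeR) and -0.62 (SE 0.13, adjusted p = 0.178, edgeR) over 27420 transcripts. The 2919-base transcript stood at 17.7, 13.7, 13.1, 18.0 and 18.8 CPM in the exposed libraries, against 26.4, 27.4, 24.3, 21.3 and 25.7 CPM in the control libraries, without overlap.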

How the data were processed

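The 5 libraries of weathered 1.34 g/L and the 5 control libraries were compared in a model of all 35 libraries. Per the labels' protocols, the library kit was directional and poly(A) RNA was selected. The authors deposited an estimated count and a TPM for each of 34903 transcripts in each library. Trimmomatic 0.38, kallisto and DESeq2 are the tools named, per the submitters' processing notes. The assembly, like kallisto's version, was not given in the sources used here. The authors' deposited table for this comparison gives a log2 fold change, a log2 mean level, an F score and, per transcript, a p-value with its adjusted form.

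Estimated counts were rounded to whole numbers, filtered with filterByExpr (minimum count 10, minimum total 15), which kept 99.86% to 99.96% of a library's counts, and scaled with TMM. edgeR 4.0.16 in R 4.3.3 fitted 7 group means, and the quasi-likelihood test gave adjusted p-values (Benjamini-Hochberg over all features tested). The absolute log2 change over the square root of F was taken as its SE. CPM was computed from the rounded counts. limma 3.58.1 and DESeq2 1.42.0 were alternatives. The fits were tested on simulated data, where edgeR's test of isoform shares made too many false calls. That test is therefore given as a description.

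The comparison, the rules and the alternatives were chosen with earlier results of these data known. The named transcripts were the 2 called rises with the smallest adjusted p, with a mean log2 CPM of at least 1 and all exposed libraries on one side of the control mean. Since 0 falls were called, the falls were those with the smallest adjusted p without replicate 3. The same minimum applied, and all other exposed libraries had to lie below the control mean. The mean log2 CPM was edgeR's average. With the mean of the libraries' log2 CPM in its place, TRINITY_DN12684_c0_g1_i13 would give way to a transcript of another Trinity gene. Lists of detoxification, stress, cuticle, energy and cell type genes were not run, since no gene names were at hand. Replicate numbers were not used as pairs, since the labels give no pairing.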

Additional observations from a re-analysis of the deposited data

Results flagged for a closer look

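In 30 sets of 5 libraries, 5 had a highest or lowest library far from the others by Dixon's criterion (a gap of more than 0.71 of the whole range at the 95% level), which chance meets in about 5% of sets. Most sets were transcripts or Trinity genes chosen by their test results, and TRINITY_DN8560_c0_g1_i22 was chosen in the fit without replicate 3, so the number is no test against that share. The CPM of TRINITY_DN8560_c0_g1_i22 was 45.4 in exposed replicate 3, above the other 4 exposed libraries. The 2225-base transcript stood at 406 CPM in exposed replicate 1, above the other exposed libraries. Its call was lost without that library, as given above. The summed CPM of TRINITY_DN12684_c0_g1 was 7.85 in control replicate 4, above the other control libraries, and the fall of that Trinity gene was not called without that library. The 1297-base isoform stood at 12.8 CPM in control replicate 3, below the other control libraries. The TMM factor of control replicate 4 was 0.922, below those of the other control libraries, and this library also had the lowest total count of the 10.

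Of the direct tests of weathered 1.34 g/L against its neighbouring concentrations, only that against 2.68 g/L gave calls in the main edgeR fit. These were the 2 transcripts of 889 and 532 bases. Other settings of the fit with all 35 libraries called more, as given below.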

How the results depend on the processing

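The directions of the named transcripts and of the 2225-base transcript were the same under every alternative run. The 3 transcript calls against the control became 1 with total count scaling (which moved the median log2 change of all transcripts to -0.12), 0 with the 10 libraries alone and 0 with those without exposed replicate 3 (added after seeing the data), 64 without exposed replicate 3 and replicate 1 of 0.67 g/L, 81 without the second of these alone (added), 12 over the authors' transcripts, 92 with DESeq2 (41 higher, 51 lower) and 61 with DESeq2 without exposed replicate 3 (added). The fits without 1 library of the compared groups called from 2 to 6. The 6 Trinity gene calls became 2 with total count scaling (1 higher, 1 lower), 33 with the 10 libraries alone (4 higher, 29 lower), 17 with those without exposed replicate 3 (2 higher, 15 lower), 177 and 240 without the 2 or the 1 library just named, 104 with DESeq2 (46 higher, 58 lower) and 53 with DESeq2 without exposed replicate 3 (29 higher, 24 lower). The fits without 1 library of the compared groups called from 3 to 9. The 6 calls of isoform shares became 1 by the gene-level F test, 1 with the 10 libraries alone and 0 with limma, and ran from 1 to 7 without 1 library. Between 1.34 and 2.68 g/L the 2 calls became 4 with total count scaling, 4 with limma-voom, 40 with DESeq2 (9 higher, 31 lower) and 1 (higher at 1.34 g/L) with these 2 groups alone, and ran from 0 to 4 without 1 library. Between 1.34 and 0.67 g/L the 0 calls became 1 with these 2 groups alone and 15 with DESeq2. The causes were not tested.

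With the replicate number as a block 3 transcripts, 4 Trinity genes, 4 isoform shares, 4 transcripts between 1.34 and 2.68 g/L and 0 between 1.34 and 0.67 g/L were called. Deviations of same-numbered exposed and control libraries correlated between -0.15 and 0.11, and those of differently numbered ones between -0.16 and 0.14. The labels give no pairing, and so few same-numbered libraries cannot exclude one.

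DESeq2's 104 Trinity genes and the 177 shared 59, which is 56.7% of DESeq2's calls and 33.3% of the 177. Changes of low transcripts are limited by depth. Intervals and limits from a count of 0 cover counting error only.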

Other observations

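Of the 12 transcripts called in the authors' deposited table, 3 rising ones have not been described above. One of 1118 bases stood at 319, 376, 381, 346 and 318 CPM in the exposed libraries, against 240.2, 199.8, 234, 203 and 170.2 CPM in the control libraries (log2 0.73, SE 0.15, adjusted p = 0.134 by edgeR over 27420 transcripts). One of 1724 bases stood at 898, 814, 684, 809 and 806 CPM in the exposed libraries, against 586, 613, 552, 611 and 586 CPM in the control libraries (log2 0.44, SE 0.10, adjusted p = 0.192 by edgeR). One of 2160 bases stood at 225, 190.1, 204, 226 and 251 CPM in the exposed libraries, against 135, 135, 155, 176 and 143 CPM in the control libraries (log2 0.56, SE 0.12, adjusted p = 0.181 by edgeR), while the sum over the 5 transcripts of its Trinity gene had a log2 change of 0.14 (SE 0.13). In all 3 the exposed libraries, replicate 3 included, lay above every control library.

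The spread of log2 changes depended on abundance. Among the 6855 least abundant of the tested transcripts 657 were at least 2-fold higher and 612 at least 2-fold lower, with 169 and 116 at an unadjusted p under 0.05. Among the 6855 most abundant 103 were at least 2-fold higher and 61 lower, with 519 and 421 at an unadjusted p under 0.05.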
